A study of Drosophila melanogaster with 32 samples.

Results

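The 34 genes described here act in the cell cycle and in DNA replication of *Drosophila melanogaster*, and were chosen by name, each read on the probe set of its symbol with the highest mean log2 signal. Each of the 34 had exactly 1 probe set of its own, and all 34 passed the signal filter, as did 10250 of the 11982 genes with a probe set. RNA of whole flies frozen at 42 days of age was hybridised to Affymetrix Drosophila Genome 2.0 arrays, in 2 pools for each line and sex and 32 arrays in all. The tested lines were 7 P-element insertion lines, each homozygous for 1 insertion and each a single line. The alleles were BG00043 in *mub*, BG00761 in *CG9238*, BG01042 in *esg*, BG00028 in *pyd*, BG00346 in *crol* and BG00495 in *CG10990*, and a line known only as BG00817. They were set against the Canton S F strain, in which the insertions had been made, within each sex, to ask which transcripts differ in lines chosen for long life. All 8 lines carry the white mutation of that strain, all flies were collected as virgins, and the insertion site of BG00817 is not exactly known. Whether the 2 pools of a group were raised apart is not stated, and the p-values therefore cover only the spread between such pools, which may be technical.

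A dividing cell licenses its replication origins by loading the MCM helicase on them, fires them with the help of the GINS complex, copies the DNA behind the helicase, and then parts the copies under the control of the spindle checkpoint and the anaphase-promoting complex. Cyclins and their kinases, and the E2F, Dp and Rbf proteins that control transcription at the start of the cycle, time these steps. In adult flies most somatic cells no longer divide. Division and endoreplication go on in the ovary, in the testis and among gut stem cells, and the oocyte is stocked with the mRNAs of many of these genes for the first embryonic divisions.

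The values are MAS5 signals on a linear scale, and a signal under 50 was taken to have no order. Lines and control were compared in limma on log2 signal, and a call means a Benjamini-Hochberg adjusted p of at most 0.05 over the 12518 probe sets tested (0.001 for tests among all lines or between the sexes). The median signal over all probe sets was 48.2 to 71 on female arrays and 115.5 to 141.1 on male arrays. Of the 6 tagged genes, 5 had a probe set past the filter. Each was read on its brightest only, of 4 for *pyd* and 2 for *mub*. Those of *mub* and *CG10990* were lower in their own lines in both sexes, those of *pyd* and *CG9238* were called lower in females only, with log2 differences in males of −0.39 and −0.65, and *esg* was called in neither sex of its line. The sex labels were borne out by 14 eggshell and yolk markers, all called higher in females than in males, and by 17 testis markers, all called lower in females. Of 16 ovary germline markers, 13 were called higher in females and 2 lower. Control female replicate 2 stood apart in its eggshell and yolk genes, with a mean log2 signal of 11.53 against 12.30 to 13.26 on the other female arrays, and the calls, the medians of the 34 genes and those of the marker lists described in females are also given without it. Whole flies were measured, so fewer cells of a type and less RNA per cell cannot be told apart.

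Females carried far more of these transcripts than males. Over the 8 lines, 33 of the 34 genes were called higher in females at an adjusted p of at most 0.001, where 37.9% of all probe sets were. The median difference over the 34 was 2.79 on the log2 scale, against −0.20 over all probe sets, and the female and male arrays overlapped for 1 gene only. Without control female replicate 2 33 genes were called and the median was 2.79. A difference of 10-fold or more was seen for 14 genes, and of less than 4-fold for 9. The shares of all probe sets with such differences, or with overlapping arrays of the sexes, were not counted.

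The mitotic cyclins differed most among the regulators. *CycB*, which activates Cdk1 at entry into mitosis, had a signal of 9573 at the lowest, 10380 in the median and 12150 at the highest over 16 female arrays, against 34.4, 70.3 and 135.4 over 16 male arrays. Every female array thus lay far above every male array, 3 of which were under 50, and the difference was at least 142-fold (adjusted p = 4.1e-18, limma). *CycB3*, a second mitotic cyclin, was 26-fold higher in females. Differences were smaller for *CycD*, the cyclin of Cdk4, at 6.06-fold, for *E2f2*, an E2F protein that represses transcription, at 5.11-fold, for *Rbf*, the retinoblastoma family protein, at 4.85-fold, and for *Dp*, the partner of both E2F proteins, at 3.55-fold. Of the anaphase and checkpoint genes, *thr*, which acts with separase, was at least 15.9-fold higher in females and *pim*, the securin, 14.2-fold. *mad2*, *fzr*, an activator of the anaphase-promoting complex, and *Bub3* were 9.44-fold, 5.19-fold and 4.91-fold higher.

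Replication licensing showed the same direction with one exception. *Mcm5*, a subunit of the MCM helicase, ranged from 1691 to 2998 on female arrays with a median of 2458, against 30.8 to 75.3 with a median of 49.9 on male arrays. The groups lay wide apart, 8 of 16 male arrays were under 50, and the difference was at least 42.6-fold. *dup*, the Cdt1 factor that loads the helicase, was 37.7-fold higher in females, *Mcm3* at least 23.1-fold, *Mcm6* 15.6-fold, and *Orc4*, a subunit of the origin recognition complex, 6.81-fold. The 3 GINS genes stood at the low end, *Psf1* at least 4.05-fold and *Psf3* 1.93-fold higher in females.

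The remaining GINS gene, *Psf2*, was the one gene not called. Its signal ranged from 633.8 to 843.3 on female arrays, with a median of 760.4, against 581.1 to 786.7 on male arrays, with a median of 664. The ranges overlapped, and the difference was 0.16 on the log2 scale (adjusted p = 0.00272), which turned to −0.17 with quantile normalization and to −0.05 with each array centred on its median. Those scalings moved the median of all probe sets between females and males to 0.12 and −0.42, and left the other 33 genes higher in females.

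At the replication fork, *PCNA*, the sliding clamp, ranged from 3146 to 4997 on female arrays, against 64.9 to 189.8 on male arrays. No arrays of the sexes overlapped, and the difference was 32.7-fold (adjusted p = 9.05e-19). *RnrL*, the large subunit of ribonucleotide reductase, was 15.1-fold higher in females, *RPA2* 12.1-fold and *Top1*, a topoisomerase, 10.4-fold. The 3 subunits of RPA, which coats single-stranded DNA, did not go together: *RPA3* was 3.29-fold and *RPA1* 1.66-fold higher. The clamp loader genes *RfC38* and *RfC4* were 7.36-fold and 7.03-fold higher, and *Gnf1*, its largest subunit, 3.63-fold.

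Among chromosome proteins, *borr* and *Incenp*, both of the chromosomal passenger complex that corrects kinetochore attachments, were 30.9-fold and 14.1-fold higher in females. *cmet*, a kinetochore kinesin of the CENP-E type, was 4.9-fold higher, *barr*, a condensin subunit, 3.81-fold, and *mei-S332*, which protects centromeric cohesion, 3.05-fold. *SMC1*, a cohesin subunit that cells also use outside mitosis, was 2.21-fold higher.

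**Figure D1:**
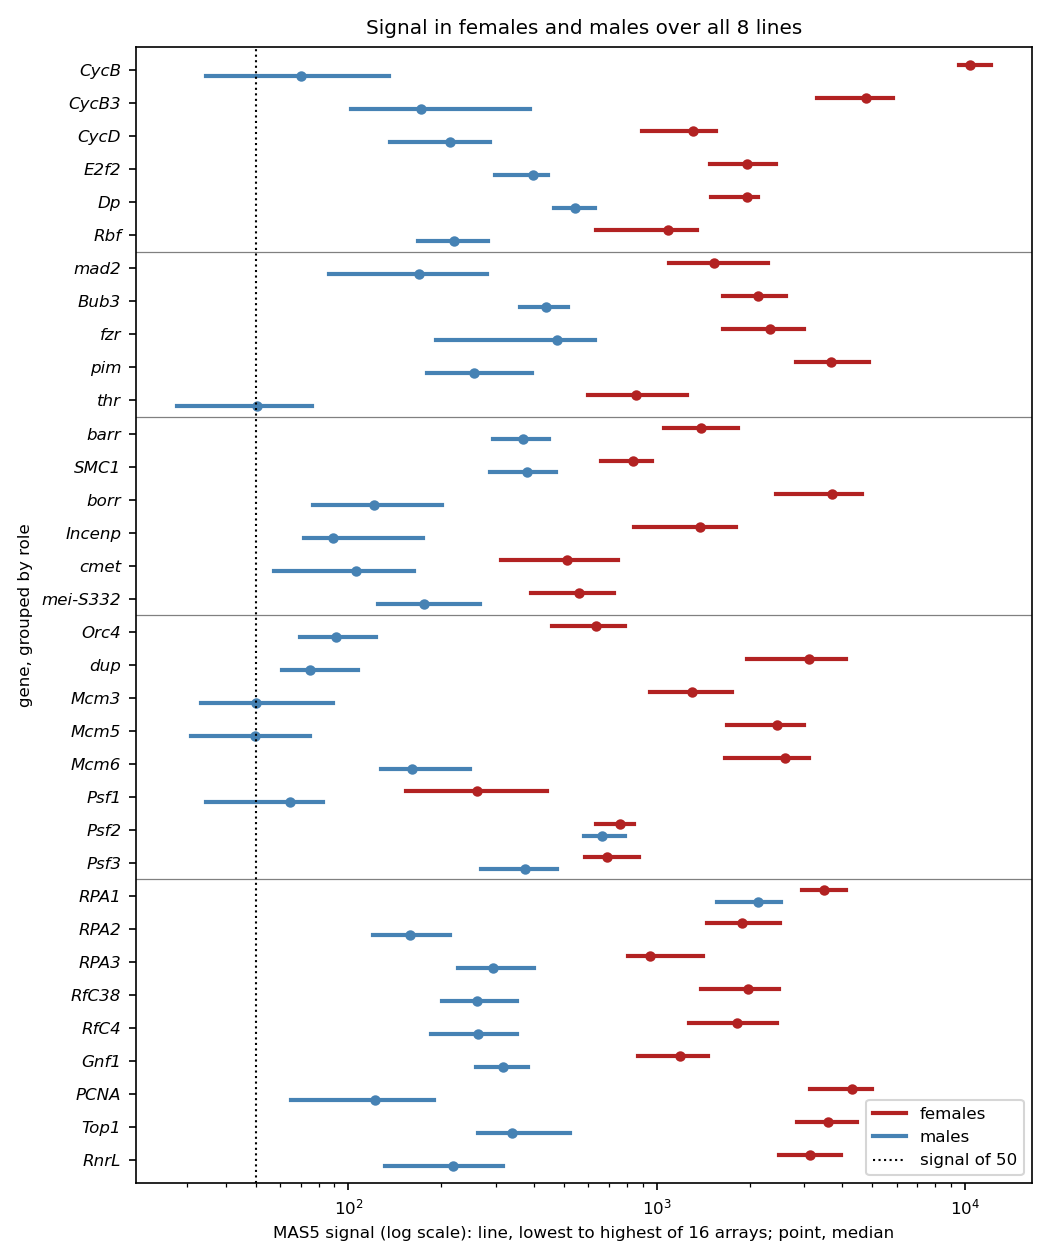
MAS5 signal of each gene on a log axis, with females above males in each row, over 16 arrays per sex. Lines run from the lowest to the highest array and points mark the median; the ranges of the sexes overlap for *Psf2* only, and 5 genes have male arrays under 50.

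*mub* females stood apart from control females in these genes. Of the 34, 24 were called lower in *mub* females and 0 higher, where 24.1% of all probe sets were called and 13.9% were called lower. The median difference of the 34 was −0.53 on the log2 scale, against −0.03 over all probe sets. The difference was below 0 for 33 genes, and both *mub* arrays lay below both control arrays for 32, as for 35.6% of all probe sets. The mub protein binds poly(C) stretches of RNA and regulates splicing.

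Among the cyclins and transcription regulators 5 of 6 were called lower. *E2f2* had signals of 1585 and 1484 in *mub* females, against 2099 and 2442 in control females, and the groups did not overlap. Its log2 difference of −0.56 ± 0.10 (SE) had the lowest adjusted p of the 34 genes, 0.00706. *CycB3* had 3536 and 3319 in *mub* females, against 5056 and 4551 in control females, a difference of −0.49 (adjusted p = 0.0103). *Rbf*, *CycD* and *Dp* fell by 0.65, 0.53 and 0.43 on the log2 scale. *CycB*, the gene with the widest gap between the sexes, did not pass: it had 9797 and 9748 in *mub* females, against 11260 and 9830 in control females, with a difference of −0.11 (adjusted p = 0.434).

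Of the checkpoint and anaphase genes 3 of 5 were called lower. *Bub3* had signals of 1637 and 1756 in *mub* females, against 2369 and 2384 in control females, which leaves a clear gap between the groups (−0.49 ± 0.10, SE, adjusted p = 0.00995). *thr* and *fzr* fell by 0.66 and 0.57, while *pim* at −0.40 and *mad2* at −0.34 had adjusted p-values of 0.108 and 0.0973.

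Chromosome genes gave 5 of 6 called lower. *borr* had 2817 and 2431 in *mub* females, against 3920 and 4194 in control females, and its difference was −0.63 ± 0.12 (SE, adjusted p = 0.008). *Incenp*, its partner in the passenger complex, fell by 0.67, with signals of 936 and 842 in *mub* females, against 1451 and 1382 in control females. *cmet* had 312 and 352 in *mub* females, against 462 and 581 in control females (−0.64, adjusted p = 0.0138). All 3 of these genes lay wholly below the controls. *mei-S332* and *barr* fell by 0.62 and 0.50, and *SMC1* had a difference of −0.07 (adjusted p = 0.786) with overlapping arrays.

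Of 8 origin and helicase genes 6 were called lower. *Mcm6* had signals of 1967 and 1665 in *mub* females, against 2589 and 2669 in control females, again without overlap (−0.54 ± 0.11, SE, adjusted p = 0.0111). *Psf1* had the largest difference of the 34, −0.81, with 209 and 154 in *mub* females, against 299.9 and 331 in control females (adjusted p = 0.0143). *Mcm5*, *Orc4*, *dup* and *Mcm3* fell by 0.60, 0.59, 0.55 and 0.50. The other GINS genes did not follow *Psf1*. *Psf3* had a difference of −0.20 (adjusted p = 0.412), and *Psf2*, the one gene above 0, had 762 and 713 in *mub* females, against 689 and 764 in control females, a difference of 0.02 (adjusted p = 0.913).

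Fork proteins gave 5 of 9 called lower. *RfC38* had signals of 1472 and 1391 in *mub* females, against 2123 and 2021 in control females, with no overlap (−0.53 ± 0.10, SE, adjusted p = 0.00858). *RfC4*, *RPA2*, *PCNA* and *Top1* fell by 0.57, 0.55, 0.51 and 0.46. *Gnf1* at −0.53, *RnrL* at −0.37, *RPA3* at −0.33 and *RPA1* at −0.25 did not pass, with adjusted p from 0.0555 to 0.0926.

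**Figure D2:**
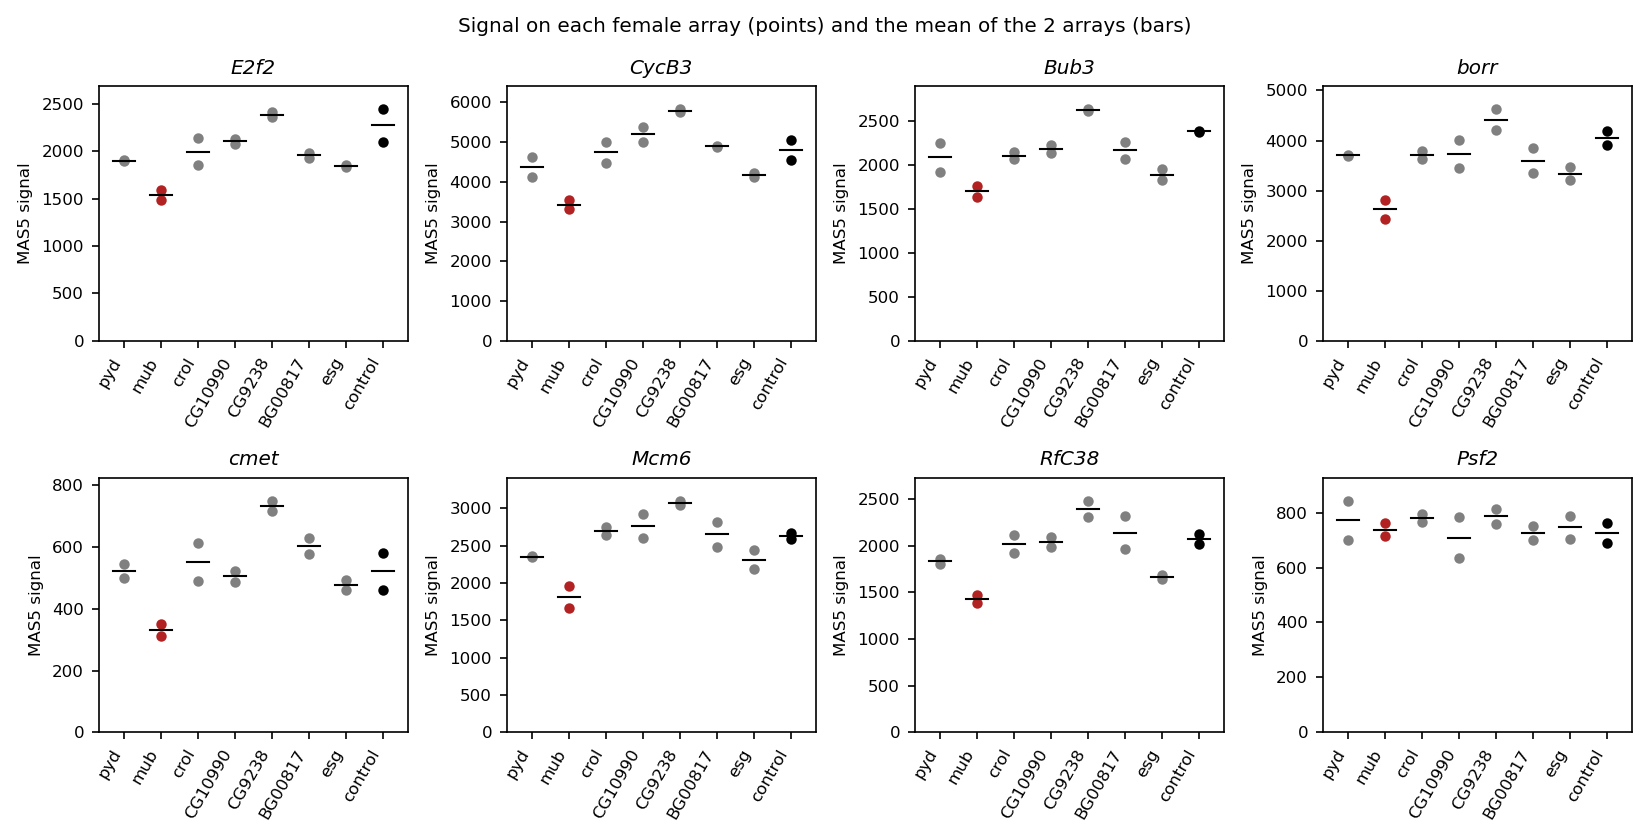
MAS5 signal of 8 of the genes on each female array (points) and the mean of the 2 arrays of a line (bars), with the control at the right of each panel. *mub* has the lowest mean in every panel but that of *Psf2*, where it had 762 and 713, and *CG9238* has the highest mean in all 8.

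The call count in *mub* females rested on all 4 arrays. It was 17 without control replicate 1, 3 without control replicate 2, 14 without *mub* replicate 1 and 4 without *mub* replicate 2, while all 24 genes kept their direction each time and the median of the 34 stayed between −0.56 and −0.45. Over the same 4 settings the probe sets called in all numbered 742 to 1964, against 3013 with all arrays.

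Other genes of both pathways showed values of the same size. Their lists were drawn up from general knowledge, but with earlier results of these data known, so they are no independent check. Over all probe sets 13.9% were called lower in *mub* females. Of 49 other cell cycle genes tested, 25 were called lower in *mub* females and 0 higher, with a median of −0.47. Of 39 other DNA replication genes, 26 were called lower and 0 higher, with a median of −0.53. The 6 with the lowest adjusted p were *Cdk4*, the kinase of *CycD* (−0.997, adjusted p = 0.00131), the centriole gene *asl* (−0.62), *Orc5* of the origin recognition complex (−0.68), *aurB*, the kinase of the passenger complex (−0.81), *feo*, which acts at the central spindle (−0.59), and *Spc25* of the kinetochore (−0.76).

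Germline markers moved with them. Of the 16 ovary germline markers 9 were called lower in *mub* females and 0 higher, with a median of −0.42, and their summed signal was 31860 to 33900 in *mub* females against 43880 to 44830 in control females. *aub* and *orb*, which act in the female germline, fell by 0.87 and 0.62. *vas*, a germline helicase, had a difference of 0.27 (adjusted p = 0.349), and none of the 16 markers was under 50 on both arrays of a female group. Eggshell and yolk markers had 0 called in *mub* females, with 13 of 14 above 0, a median of 0.47, and summed signals of 116000 to 147600 in *mub* females against 79810 to 110800 in control females. Without control replicate 2, their median was 0.29 with 11 of 14 above 0, and that of the germline markers −0.42 with 2 called lower. Of the midgut stem cell markers listed, only *esg* and *sc* had a probe set of their own, and *sc* failed the filter. Their summed signal was 74.2 to 85.5 in control females, not far above 50, and 166.7 to 172 in *mub* females. *esg* rose by 1.16 in *mub* females (adjusted p = 0.00401). This rise was not particular to *mub*: *esg* was also called higher in BG00817, *crol* and *pyd* females, by 1.04, 0.88 and 0.73. In *CG10990*, *esg* and *CG9238* females the differences were 0.65, 0.61 and 0.04, without a call. Of the 17 testis markers none was called in *mub* females, which carries no information. Of the 19 with a probe set, 16 were under 50 on both *mub* female arrays and 18 on both control female arrays. The part of these tissues in the fall of the 24 genes was not tested. Of the 4750 probe sets called higher in females than in males, 34.2% were called lower in *mub* females, with a median difference of −0.35. The 3′ to 5′ ratio of the array controls, a sign of RNA quality, was 2.13 to 2.46 on the log2 scale in *mub* females and 2.35 to 2.42 in control females.

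**Figure D3:**
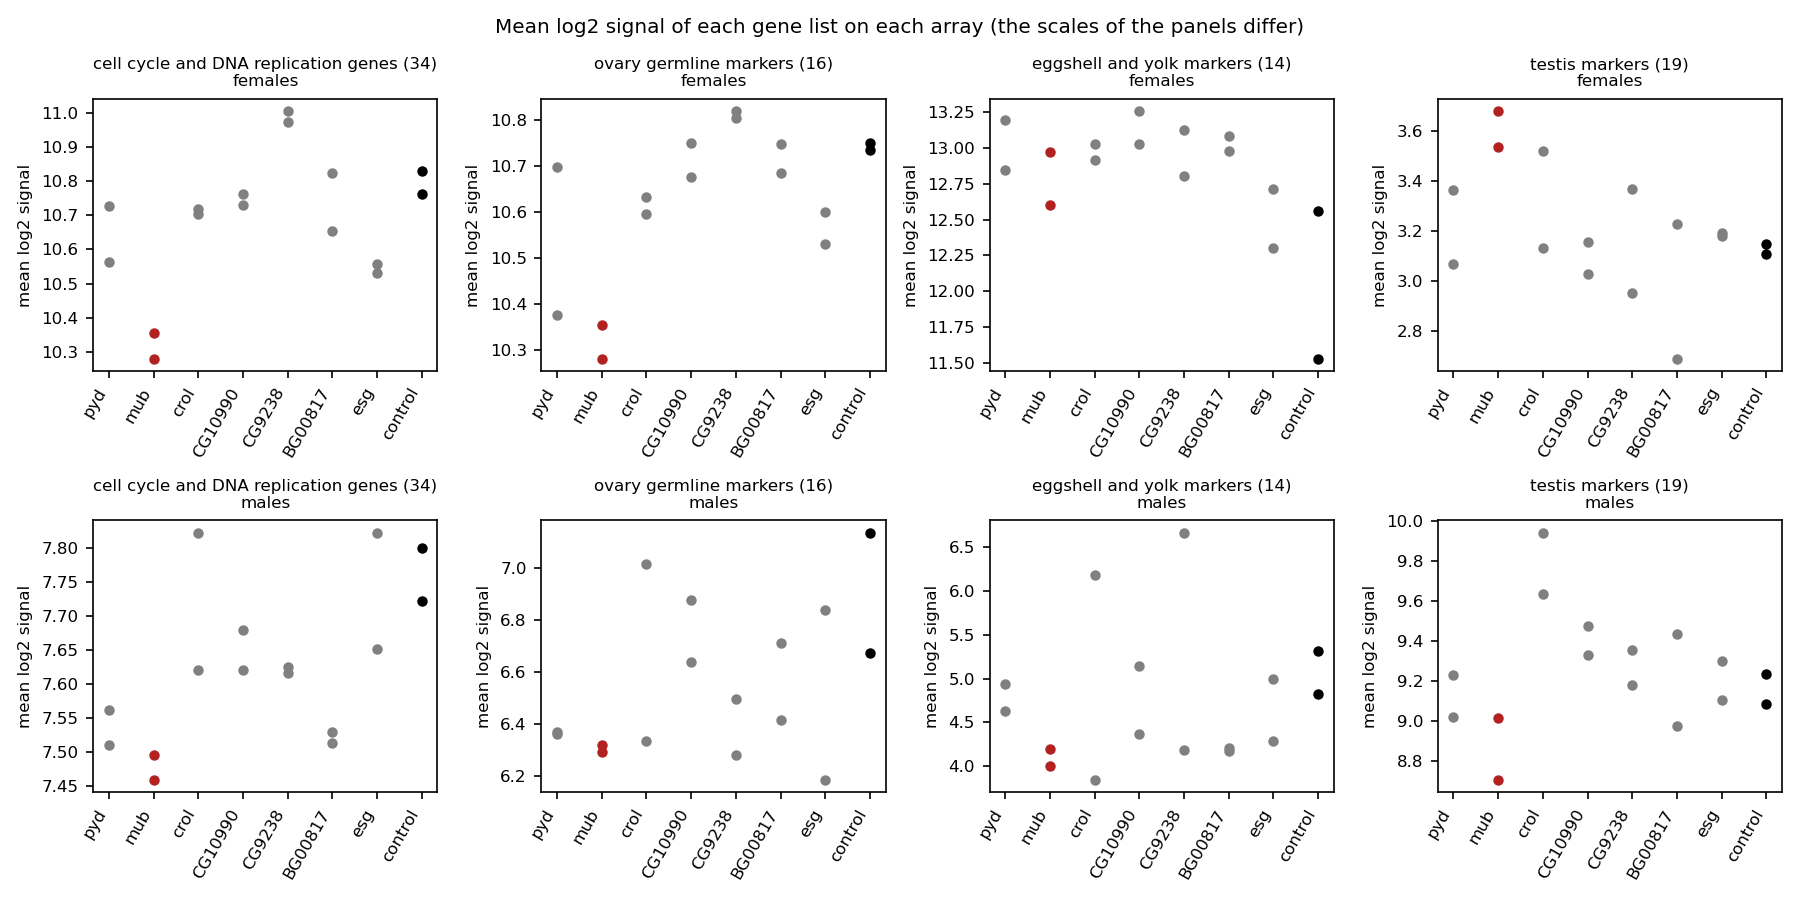
Mean log2 signal of the 34 genes and of 3 marker lists on each array, females above and males below, with the control at the right of each panel. In females the 34 genes and the ovary germline markers are lowest in *mub* and highest in *CG9238*, while eggshell and yolk markers are lowest on control replicate 2.

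The other lines moved these genes less in females. All 7 lines share the 2 control arrays of a sex, so their differences are not independent of each other. In *CG9238* females 0 of 34 genes were called, where 1.85% of all probe sets were, yet 33 had a difference above 0, with a median of 0.16 against −0.01 over all probe sets. Both *CG9238* arrays lay above both control arrays for 23 genes, as for 20.3% of all probe sets. *cmet* had 717 and 749 in *CG9238* females, against 462 and 581 in control females (0.50, adjusted p = 0.141), and *mad2* 1780 and 2292 against 1465 and 1519 (0.44, adjusted p = 0.19). Neither pair of groups overlapped. *Dp*, the one gene not above 0, had 2028 and 2023 in *CG9238* females, against 1944 and 2132 in control females (−0.01). Without control replicate 2 the median was 0.22, with 33 genes above 0 and 0 called. Ovary germline markers had a median of 0.09 in this line, with 10 of 16 above 0 and 1 called higher, and their summed signal was 45570 to 46740, with the control values given above. Eggshell and yolk markers had a median of 0.54, with 13 of 14 above 0 and 1 called higher. Without control replicate 2 the eggshell and yolk median was 0.26, with 9 of 14 above 0, the germline median was 0.06, and neither list had a call. The 3′ to 5′ ratio was 2.51 to 2.59, and the part of none of these in the result was tested. The CG9238 product is a regulator of protein phosphatase 1.

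In *esg* females 1 gene was called lower, *Orc4*, where 3.99% of all probe sets were called. It had signals of 509 and 458 in *esg* females, against 763 and 718 in control females, with no overlap (−0.62 ± 0.12, SE, adjusted p = 0.0288), and the call was lost without either array of either group, with an adjusted p of up to 0.153. The difference was below 0 for 33 genes, with a median of −0.24 against −0.03 over all probe sets, and both *esg* arrays lay below both control arrays for 26 genes, as for 30.3% of all probe sets. *Psf2* was again the exception, with 789 and 706 in *esg* females, against 689 and 764 in control females (0.04). Without control replicate 2 the median was −0.20, with 30 genes below 0. Ovary germline markers had a median of −0.23, with 13 of 16 below 0 and 1 called lower, and a summed signal of 36580 to 37290. Eggshell and yolk markers had a median of 0.12, with 7 of 14 above 0, 0 called, and summed signals of 101900 to 110300 in *esg* females. Without control replicate 2 the germline median was −0.16 and the eggshell and yolk median −0.02, with 0 called in either list. The 3′ to 5′ ratio was 2.82 to 2.86, and the part of none of these in the result was tested. The esg protein is a transcription factor that maintains stem cells.

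No gene was called in females of the other 4 lines, where the calls over all probe sets came to 3.9% in *pyd*, 2.68% in *crol*, 1.19% in *CG10990* and 3.95% in BG00817. Unadjusted p-values under 0.05 were seen for 6 genes in *pyd*, 0 in *crol*, 0 in *CG10990* and 1 in BG00817. The share of all probe sets under that value is not given, here or for the like counts below. These counts are thus not set against a background, and cannot be read as high or low. Median differences were −0.16 in *pyd*, −0.10 in *crol*, −0.05 in *CG10990* and −0.05 in BG00817. Single arrays moved these medians. The *pyd* median was −0.05 without *pyd* replicate 1, that of *crol* −0.16 without control replicate 1, that of *CG10990* −0.12 without control replicate 1, and that of BG00817 −0.13 and 0.03 without its replicates 1 and 2. Without control replicate 2 the medians were −0.14 in *pyd*, −0.08 in *crol*, −0.01 in *CG10990* and −0.02 in BG00817, with 0 called in each.

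Across the 8 lines in females, the lowest mean was that of *mub* for 30 of the 34 genes and the highest that of *CG9238* for 33, where *mub* was lowest for 28.6% and *CG9238* highest for 17.4% of all probe sets. Over the 34 genes, the SD of the 8 line means, each of 2 arrays, had a median of 0.22. The SD of single arrays between replicate pools had a median of 0.13. A mean of 2 arrays varies less than 1 array, so the 2 SDs are not on the same scale. The F-test among lines called 0 of 34 genes at an adjusted p of at most 0.001, where 1.17% of all probe sets were called. It likewise called 0 without control replicate 2. An unadjusted p under 0.05 was seen for 27 genes, again without the share over all probe sets. The lowest adjusted p-values were 0.0109 for *CycB3*, 0.0112 for *RfC38* and 0.0115 for *cmet*. *CycB3* ranged from 3319 and 3536 in *mub* to 5757 and 5826 in *CG9238*, with 5056 and 4551 in the control. *RfC38* ranged from 1391 and 1472 in *mub* to 2312 and 2484 in *CG9238*, and *cmet* from 312 and 352 to 717 and 749 in the same lines. In each of these genes both *mub* arrays were the lowest of the 16, and a *CG9238* array was the highest.

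**Figure D4:**
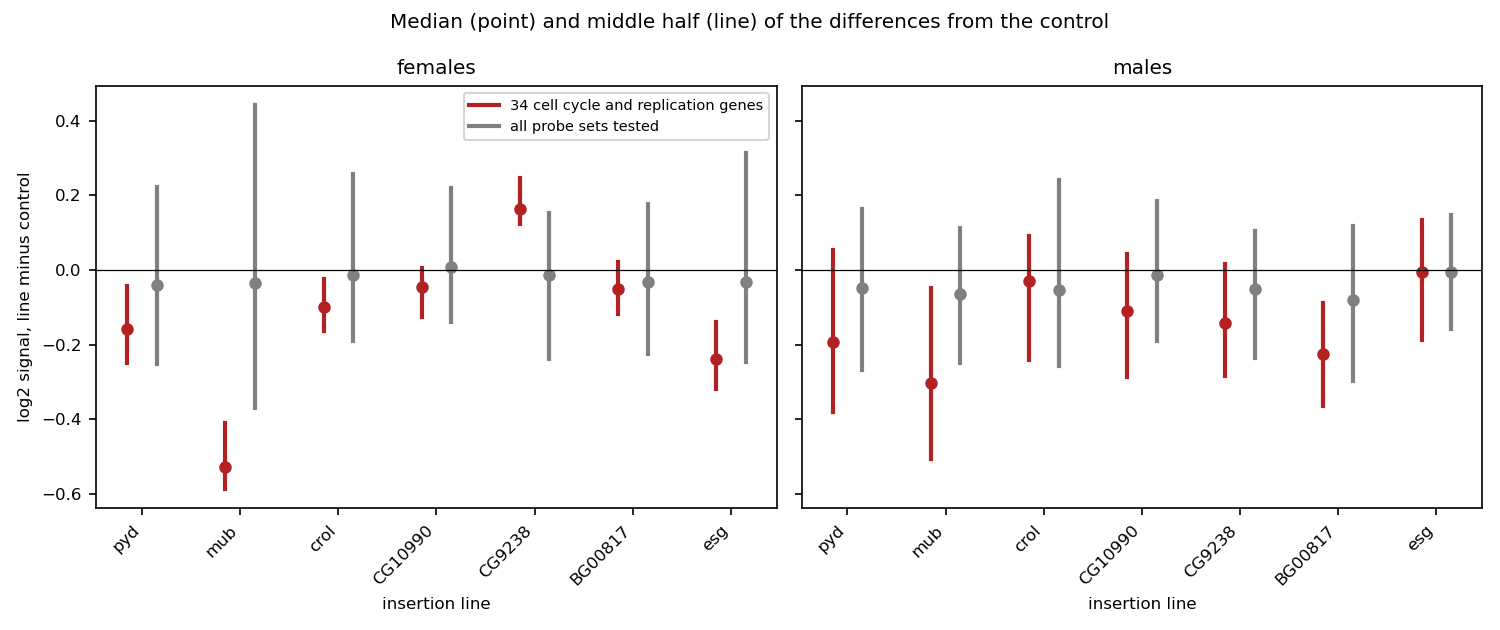
Median (points) and interquartile range (lines) of the log2 differences from the control in each insertion line, for the 34 genes and for all probe sets tested, females left and males right. The median of the 34 genes is −0.53 in *mub* females and 0.16 in *CG9238* females, and the medians over all probe sets lie close to 0.

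In males the signals were low and the picture was mixed. The SD of the 8 line means had a median of 0.21, and that of single arrays between replicate pools also 0.21. As in females, the first is an SD of means of 2 arrays, so equal values do not show that the lines were alike. *pyd* males gave 2 calls, both lower, where 8.8% of all probe sets were called. *mad2* had signals of 118.5 and 86.6 in *pyd* males, against 188.2 and 176.1 in control males, without overlap (−0.85 ± 0.20, SE, adjusted p = 0.0251). *Mcm3* was under 50 on both *pyd* arrays and had 61.4 and 89.2 in control males, which makes it at least 0.57 lower on the log2 scale (adjusted p = 0.0493).

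*crol* males gave 3 calls, where 12.9% of all probe sets were called. *cmet* rose, with 163.7 and 159.6 in *crol* males, against 108.6 and 103 in control males (0.61, adjusted p = 0.0164). *RnrL* fell to 131.5 and 150.7 in *crol* males, against 218.3 and 317 in control males (−0.90, adjusted p = 0.0202). *RPA1* fell too, with 1657 and 1565 in *crol* males, against 2090 and 2275 in control males (−0.44, adjusted p = 0.0211). None of these groups overlapped. In the same males 9 of 17 testis markers were called higher and 0 lower, with summed signals of 43060 to 52820 in *crol* males against 26940 to 31710 in control males, and their part in the 3 calls was not tested.

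In *mub* males 1 gene was called, where 1.29% of all probe sets were. *cmet* had 67.5 and 57.5 in *mub* males, against 108.6 and 103 in control males, with no overlap (−0.76 ± 0.12, SE, adjusted p = 0.015), and it was lower in both sexes of this line. The 34 genes had a median of −0.30 against −0.06 over all probe sets, with 27 below 0 and both *mub* arrays below both control arrays for 18, as for 33.8% of all probe sets. The median was −0.19 without control replicate 2. With each array centred on its median it was −0.20, against 0.04 over all probe sets. Ovary germline markers were also below 0 for 13 of 16 in *mub* males, with 0 called, but 7 of them were under 50 on both arrays. Testis markers were below 0 for 15 of 17, with 0 called and summed signals of 23010 to 28570 in *mub* males against 26940 to 31710 in control males, and the 3′ to 5′ ratio was 2.66 to 2.79 in *mub* males and 2.32 to 2.43 in control males. Their part in the result was not tested. BG00817 males gave 1 call, *Psf1*, where 5.6% of all probe sets were called. It was under 50 on both BG00817 arrays and had 79.4 and 75.7 in control males, at least 0.63 lower on the log2 scale (adjusted p = 0.0279). Their median was −0.23 against −0.08 over all probe sets, and both BG00817 arrays lay below both control arrays for 20 genes, as for 35.5% of all probe sets. The median was −0.13 with quantile normalization and −0.11 with each array centred, against −0.02 and 0.03 over all probe sets. The 3′ to 5′ ratio was 2.70 to 2.87 in BG00817 males against 2.32 to 2.43 in control males, and its part in the result was not tested. No gene was called in males of *CG10990*, *CG9238* or *esg*, where 2.89%, 2.84% and 1.22% of all probe sets were, and 3, 0 and 2 of the 34 had an unadjusted p under 0.05. Each of the 7 calls in males was lost when some single array was left out, and all 7 were lost without control replicate 2.

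The F-test among lines in males called 0 of 34 genes, where 1.69% of all probe sets were called, and 12 genes had an unadjusted p under 0.05. *cmet* came closest, with an adjusted p of 0.00112, and ranged from 57.5 and 67.5 in *mub* males to 159.6 and 163.7 in *crol* males. *Incenp* followed (adjusted p = 0.00799), with 71.8 and 73.1 in *mub*, 173.8 and 128.6 in *esg* and 109.2 and 115.3 in the control. *RPA1* was next (adjusted p = 0.0206), from 1565 and 1657 in *crol* to 2373 and 2529 in *CG9238*. No line had the lowest or the highest mean for most of the 34 genes here. The lowest was that of *mub* for 11 genes and of *pyd* for 8, against 13.5% and 17.8% of all probe sets. The highest was that of *crol* for 9, of *esg* for 7 and of the control for 7, against 21.7%, 8.19% and 13.2% of all probe sets.

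**Figure D5:**
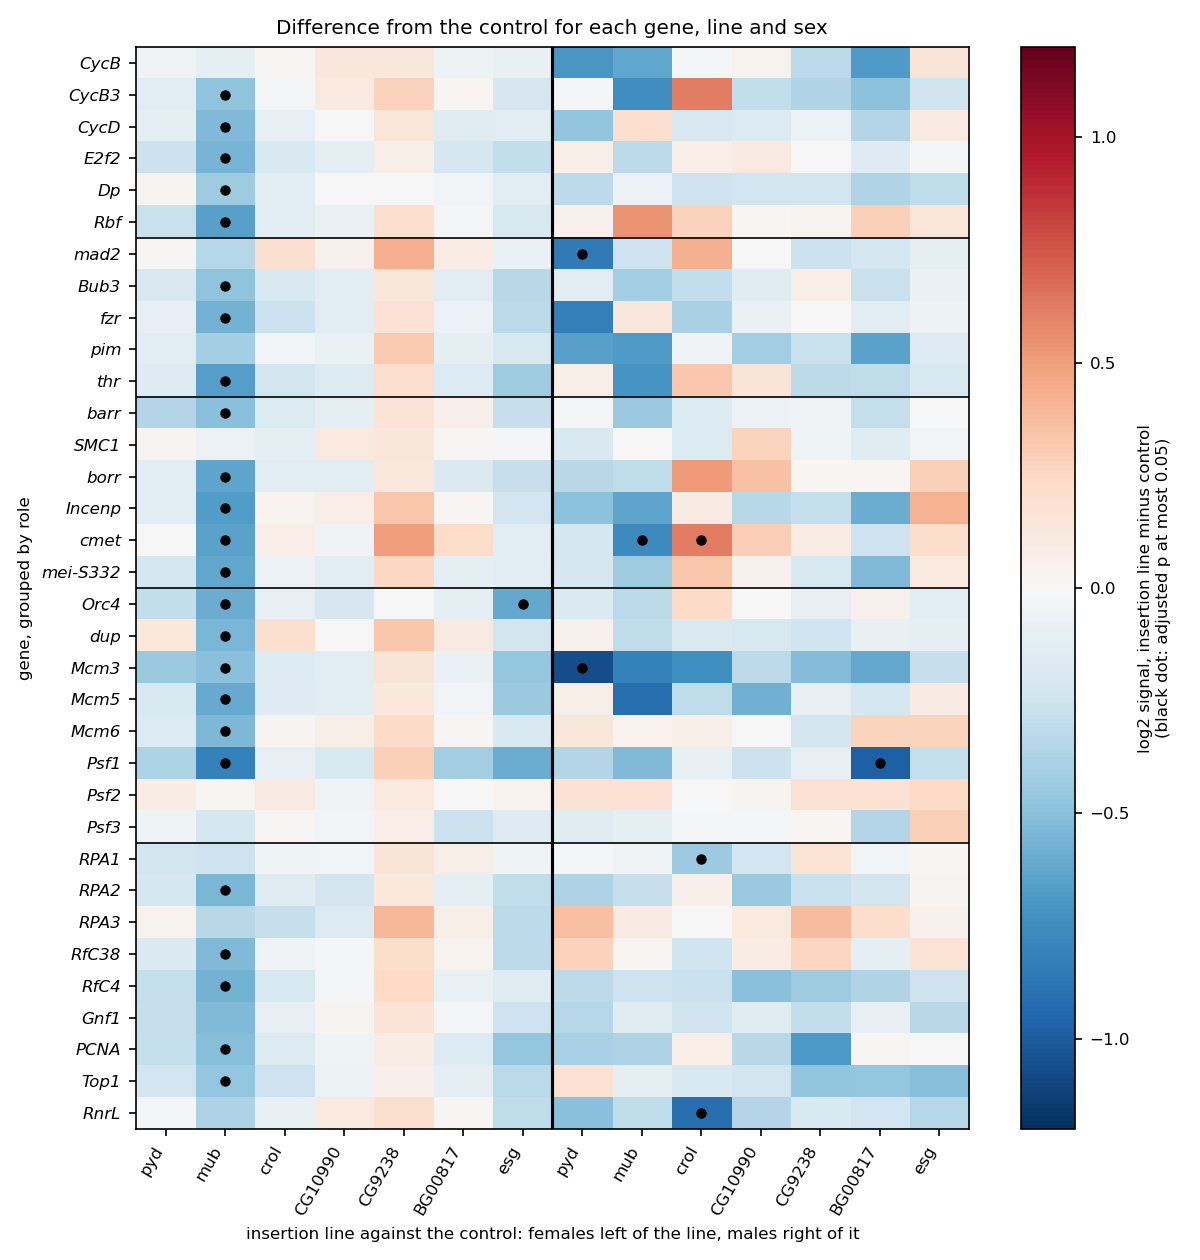
Log2 difference from the control for each of the 34 genes (rows, grouped by role) in each insertion line (columns), females left of the vertical line and males right of it. Black dots mark an adjusted p of at most 0.05, of which *mub* females hold 24.

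Averaged over both sexes, on the 8 arrays of each line and the control, 16 of the 34 genes were called lower in *mub*, where 5.88% of all probe sets were. *Incenp* had the lowest adjusted p there (−0.65, adjusted p = 0.0137), followed by *Bub3* (−0.45, adjusted p = 0.0225) and *barr* (−0.47, adjusted p = 0.0234), and *pim* passed here but in neither sex alone (−0.54, adjusted p = 0.0429). The count fell to between 0 and 8 with any 1 of the 8 arrays left out, and 4 of the 16 genes, *thr*, *Mcm3*, *Mcm5* and *Psf1*, had male arrays under 50. *esg* gave 3 lower genes, *Orc4*, *Psf1* and *Top1*, with differences of −0.37, −0.44 and −0.42, where 2.66% of all probe sets were called lower. BG00817 gave 1, *Psf1*, where 4.34% were. With its 2 male arrays under 50 set to 50 it was at least 0.53 lower on the log2 scale, while the test used the signals as deposited. The other 4 lines gave 0 calls, with unadjusted p under 0.05 for 4 genes in *pyd*, 9 in *crol*, 3 in *CG10990* and 4 in *CG9238*. The shares of all probe sets called in these 4 lines are not given, so the 0 calls do not set the 34 genes apart.

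The difference from the control was itself compared between the sexes. *Rbf* was the one gene called, in *mub*, where 4.14% of all probe sets were, so the 34 genes were called no more often than that. *Rbf* had signals of 869 and 636 in *mub* females, against 1135 and 1203 in control females. Its signals were 283 and 282 in *mub* males, against 219 and 172 in control males. The *mub* arrays thus lay below the controls in females and above them in males, with log2 differences of −0.65 and 0.54, and the difference between the sexes was −1.19 ± 0.27 (SE, adjusted p = 0.0226). The male difference alone had an adjusted p of 0.237, and the call between the sexes was lost without control female replicate 2, control male replicate 2, *mub* female replicate 2 or either *mub* male array, and with only the 8 arrays of *mub* and the control in the fit (adjusted p up to 0.0999). In *CG9238* none of the 34 genes was called, and 6 had an unadjusted p under 0.05. The share of all probe sets called in that test is not given. The difference from the control in females minus that in males had a median of 0.38, with 31 above 0, against 0.03 over all probe sets. The median was 0.18 with quantile normalization, with 27 above 0, and 0.27 without control female replicate 1.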

How the data were processed

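The authors processed each array with MAS5 (version not given in the sources used here) and deposited 1 intensity per probe set on a linear scale. The deposited values have a mean, trimmed by 2% at each end, of 500 on every array, although the methods name a median of 500. The deposited table holds 18952 probe sets. Array controls (183) were dropped, and a probe set was tested if both replicates of at least 1 line and sex reached 50, which left 12518. Of these, 11072 have 1 gene symbol, 342 several and 1104 none, from the platform annotation with symbols updated through the RefSeq gene table, and no gene was named from a probe set with several. The 34 genes, the lists and the tests were chosen with earlier results of these data known.

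log2 signal was fitted in R 4.3.3 with limma 3.58.1. Lines were compared with the control on the 16 arrays of a sex (8 residual degrees of freedom), over both sexes on the 8 arrays of line and control, and between the sexes on all 32 arrays. p-values were adjusted by Benjamini and Hochberg over all probe sets within each comparison. The fits were tested on simulated data. Signals on every array are given for the gene with the lowest adjusted p of each role in *mub* females, the 3 lowest of each F-test, genes against the common direction, and other calls. Up to 6 genes of the other pathway lists were named by adjusted p in *mub* females, and other genes only as markers (ovary germline, eggshell and yolk, testis, midgut stem cell) or as tagged genes. The number of arrays limits the precision. Alternatives were other scalings and filters, an offset, an intensity trend, a replicate block, analysis of variance on untransformed signal, other sets of arrays in the fit, and each array left out. Marker lists without control female replicate 2, and both-sex differences with signals under 50 set to 50, were added after seeing the data.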

Additional observations from a re-analysis of the deposited data

Results flagged for a closer look

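*Rbf* had a difference from the control in the *mub* line that was called as differing between the sexes. Its log2 difference from the control was −0.65 in *mub* females and 0.54 in *mub* males, a gap of −1.19 (SE 0.27, adjusted p = 0.0226 in limma on all 32 arrays). It is given here because the test of that gap itself passed, alone among the 34 genes in the 7 lines. Of all probe sets 4.14% passed the same test in *mub*, so the 34 genes passed it no more often. The call held in 10 of 16 alternatives on log2 signal, with adjusted p from 0.0104 to 0.0999. It was lost on the 8 arrays of *mub* and the control and without any of 5 single arrays, and it was kept in the analysis of variance on untransformed signal.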

How the results depend on the processing

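None of the 86 calls on single genes reversed its direction in the alternatives run, analysis of variance included, and *Psf2*, not called between the sexes, did with quantile normalization (−0.17) and centring (−0.05). In *mub* females the 24 calls became 16 to 27 under the scalings, filters, offset, trend, replicate block (21) and analysis of variance, and 3 to 17 with an array left out. The 24 genes kept their direction, and *E2f2* its call, in all of these, with adjusted p of *E2f2* up to 0.0498. Females against males gave 33 or 34 genes with an array left out. Replicate numbers gave no sign of a pairing common to all lines. Deviations of replicates with the same number correlated between lines at −0.081 to 0.082 in females (median 0.004). In males they correlated at −0.144 to 0.242 (median −0.008). These values cannot exclude a pairing of some lines only. Averaging the probe sets of a gene changes nothing here, since each gene has 1.

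Counts of the 34 genes called moved as follows. In *esg* females the 1 call became 0 without a filter, 2 with analysis of variance and 0 with any array left out. In *pyd* females 0 became 3 without *pyd* replicate 2, with a range of 0 to 3. In *pyd* males the 2 calls became 1 with quantile normalization, centring or the replicate block, 0 without a filter or with analysis of variance, and 0 to 4 with an array left out. In *mub* males the 1 call became 0 with quantile normalization or the trend, and 0 to 1 with an array left out. In *crol* males the 3 calls became 1 without a filter and 0 to 4 with an array left out. In BG00817 males the 1 call became 0 with quantile normalization, centring, no filter, the trend, analysis of variance or any array left out, and 2 with a minimum of 100. Among lines in males 0 became 1 with a minimum of 100.

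Over both sexes the 16 calls in *mub* became 5 with quantile normalization, 7 with centring, 0 without a filter, 2 with the replicate block and 0 to 8 with an array left out. BG00817, with 1, gave 2 with quantile normalization or a minimum of 100, 0 without a filter or with analysis of variance, 4 with the trend, and 0 to 1 with an array left out. *esg*, with 3, gave 0 without a filter or with the replicate block, 10 with analysis of variance, 1 with all 32 arrays in the fit, and 0 to 1 with an array left out. The lines with 0 gave 2 in *pyd* with all 32 arrays, 1 in *crol* with the offset, the trend or analysis of variance and 4 with all 32 arrays, and 3 in *CG9238* with analysis of variance.

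Between the sexes the 1 call in *mub* became 19 with analysis of variance, 0 on the 8 arrays of line and control, and 0 to 1 with an array left out. The lines with 0 gave 1 in *pyd* with quantile normalization and 0 to 3 with an array left out, 1 in *crol* with quantile normalization or the trend and 0 to 2 with an array left out, and 2 in *CG9238* and 2 in *esg* with analysis of variance. The cause of these moves was not tested. The median of the 34 genes moved by more than the spread between replicates in 38 cases. In *pyd* males (−0.19) it became −0.10 with centring, in *CG9238* males (−0.14) −0.03 with quantile normalization, and in *esg* males (−0.01) −0.12 without *esg* replicate 1. In *crol* males (−0.03) it became −0.15 with quantile normalization, and 0.04 and −0.15 without *crol* replicates 1 and 2. The scalings also moved the median over all probe sets. It went from −0.05 to 0.05 in *pyd* males with centring. With quantile normalization it went from −0.05 to 0.004 in *CG9238* males and from −0.05 to −0.07 in *crol* males. For 5 genes some male arrays were under 50, where signals have no order.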
